A study of Mus musculus with 9 samples.

Results

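Aminoacyl-tRNA synthetases join each amino acid to the transfer RNA that carries its anticodon, so every protein made in the cytosol or in the mitochondria depends on them. Most amino acids are served by separate nuclear genes for the cytosolic and the mitochondrial enzyme, while glycyl-tRNA synthetase (Gars) and lysyl-tRNA synthetase (Kars) supply both compartments from 1 gene each. Several cytosolic enzymes are held together with scaffold proteins in the multi-synthetase complex. The members were all probes whose annotated symbol is a letter followed by ars or prs and at most 1 further character out of 1, 2, 3, a and b, which gave 77 probes for 35 genes out of 45281 probes and 19057 genes on the array. Of these genes, 17 encode cytosolic enzymes, 16 mitochondrial enzymes and 2 serve both compartments. The cytosolic methionyl enzyme is listed under Mars1.

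The study profiled total RNA from 3 kinds of mouse sample on Illumina bead arrays, with 3 arrays each: embryonic stem cells kept undifferentiated (mES, source given as mES_TBV2), purified heart muscle cells of 1-day-old mice (CMp) and purified heart muscle cells of the left ventricle at 2 months of age (CMa). No treatment, transgene or mutation is named for any group, and the labels used here name no strain. The design describes triplicates that are biological but links no sample to an animal or a culture, so a p-value measures the spread between these samples, which may be partly technical. CMp and CMa differ in age and in the part of the heart at the same time, and both cardiomyocyte groups are compared with the same 3 mES arrays. All levels below are normalised log2 intensities of a gene's brightest probe that was detected on at least 3 arrays. Levels of different genes are not compared, because each probe has its own brightness.

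Between 13781 and 17946 probes were detected per array. Arrays of a group correlated at 0.988 to 0.995 in mES and 0.973 to 0.985 in CMa. CMp replicate 1 stood apart, with a correlation of 0.965 with each of the other CMp arrays, which correlated at 0.995 with each other. The 7 cardiomyocyte markers averaged 5.09 to 5.20 log2 units in mES, 13.5 to 13.6 in CMp and 13.9 to 14.1 in CMa, and the 6 pluripotency markers 12.6 to 12.8, 5.23 to 5.47 and 5.53 to 5.74. Thus the defining markers of each labelled cell type were high in its own arrays. Markers of other heart cells were also higher in the cardiomyocyte samples than in mES: the 5 measured fibroblast markers averaged 4.36 to 4.48 in mES, 9.96 to 10.3 in CMp and 7.36 to 7.67 in CMa, and 5 of 5 were undetected on every mES array. The 5 endothelial markers averaged 5.57 to 5.91, 10.9 to 11.5 and 9.44 to 9.88, and the 3 erythroid markers 4.33 to 4.63, 12.7 to 13.3 and 9.36 to 10.3. Leukocyte markers (3 measured) averaged 4.34 to 4.45, 7.17 to 8.08 and 5.74 to 6.75, and smooth muscle and pericyte markers (3 measured) 4.41 to 4.52, 7.50 to 8.20 and 7.71 to 7.79. These markers moved with the groups, and their part in the synthetase results was not tested. In such bulk samples, fewer cells of a type and less RNA per cell cannot be told apart.

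The promoters of several synthetase genes are shown first. Amino acid shortage is known to act on genes of this family through the transcription factor ATF4. The part of ATF4 in the changes below was not tested. ATF4 binds the C/EBP-ATF composite element, searched here as TGATGNAAN and, on the other strand, NTTNCATCA. RefSeq promoter windows (mouse build GRCm38.p6, 250 bases before to 50 bases after a gene's start) were found for 26 of the 35 members, giving 27 windows. The element was present in 4 of 10 windows of cytosolic genes (Aars, Iars, Tars and Yars), in 1 of 2 windows of genes that serve both compartments (Gars) and in 0 of 15 windows of mitochondrial genes, against 3.95% of all 32851 windows. The 4 windows below belong to members that were lower in CMp and in CMa than in mES, and each holds the element, marked in capitals. The window of Yars, not shown, also holds it, and Yars was not called in CMp against mES (-0.16). The window of Farsb, which was lower in both comparisons (-2.39 and -2.04), holds none. A link between the element and these changes was not tested. The Lars2 window, of the mitochondrial gene with the largest increase, holds none.
Aars, chr8:111033592-111033891, + strand: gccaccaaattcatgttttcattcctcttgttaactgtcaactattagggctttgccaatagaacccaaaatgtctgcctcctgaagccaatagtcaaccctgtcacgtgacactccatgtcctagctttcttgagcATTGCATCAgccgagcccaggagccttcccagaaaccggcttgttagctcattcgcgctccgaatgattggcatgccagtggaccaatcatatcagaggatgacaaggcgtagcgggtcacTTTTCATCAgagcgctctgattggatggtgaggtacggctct
Gars, chr6:55037751-55038050, + strand: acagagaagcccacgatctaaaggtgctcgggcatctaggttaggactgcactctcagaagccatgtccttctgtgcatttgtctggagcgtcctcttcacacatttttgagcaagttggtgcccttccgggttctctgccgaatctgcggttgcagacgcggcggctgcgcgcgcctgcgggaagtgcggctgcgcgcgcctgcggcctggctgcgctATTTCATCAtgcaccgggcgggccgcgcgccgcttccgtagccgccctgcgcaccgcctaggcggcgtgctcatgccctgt
Iars, chr13:49681880-49682179, + strand: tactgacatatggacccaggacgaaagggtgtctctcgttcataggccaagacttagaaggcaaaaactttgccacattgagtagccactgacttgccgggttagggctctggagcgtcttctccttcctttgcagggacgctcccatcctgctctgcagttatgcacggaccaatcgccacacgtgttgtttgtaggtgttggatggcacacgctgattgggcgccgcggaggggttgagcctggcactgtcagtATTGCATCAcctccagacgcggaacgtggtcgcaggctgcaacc
Tars, chr15:11399609-11399908, - strand: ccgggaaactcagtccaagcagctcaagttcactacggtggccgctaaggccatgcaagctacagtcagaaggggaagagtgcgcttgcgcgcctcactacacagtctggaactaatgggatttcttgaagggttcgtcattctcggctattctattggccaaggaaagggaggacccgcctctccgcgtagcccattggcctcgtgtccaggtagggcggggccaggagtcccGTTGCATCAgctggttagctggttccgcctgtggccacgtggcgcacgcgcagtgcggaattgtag
Lars2, chr9:123366677-123366976, + strand: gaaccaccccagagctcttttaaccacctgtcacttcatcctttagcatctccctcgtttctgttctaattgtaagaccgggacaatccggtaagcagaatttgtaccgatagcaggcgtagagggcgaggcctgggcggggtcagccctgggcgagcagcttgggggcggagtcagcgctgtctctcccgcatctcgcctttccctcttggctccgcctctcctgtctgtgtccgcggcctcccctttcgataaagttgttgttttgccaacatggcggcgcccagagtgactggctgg
Counted from 0 at the gene's start, the element began at -113 and 8 in Aars, at -31 in Gars, at 6 in Iars and at -16 in Tars. The E-box CACGTG, a site of MYC and related factors, was present in 4 of 10 cytosolic windows (Aars, Farsb, Iars and Tars), 0 of 2 windows of the genes for both compartments and 1 of 15 mitochondrial windows (Ears2), against 7.15% of all windows. The site of NRF1, a regulator of nuclear genes for mitochondrial proteins, was searched on both strands as GCGCA, any base and GCGC. It was present in 2 of 10 cytosolic windows (Farsb and Tars), in 1 of 2 windows of the genes for both compartments (Kars) and in 2 of 15 mitochondrial windows (Iars2 and Mars2), against 4.60% of all windows. No site of a motif overlapped a site of another in the members' windows, and in Tars the E-box and the site of NRF1 lie side by side. A match describes these letters in this window and no more.

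Of the 35 genes, 32 had a probe that was detected on at least 3 arrays and were tested: 17 cytosolic, 13 mitochondrial and 2 for both compartments. The mitochondrial genes Nars2, detected on 2 arrays, and Hars2 and Yars2, detected on 0, were not tested. Of the 32, 25 were detected on all 9 arrays, and 0 were detected on the arrays of 1 group alone. In the F-test among the 3 groups, 30 of 32 members differed, Wars and Vars2 being the exceptions, against 87.9% of all 10800 genes tested. In single comparisons 25 of 32 were called in CMp against mES, 28 in CMa against mES and 17 in CMa against CMp, beside 74.2%, 77.0% and 52.3% of all genes. The values of the compared groups did not overlap for 27, 29 and 21 members, beside 77.8%, 80.1% and 55.7% of all genes, so the family differed about as often as other genes did and its direction is given below by compartment.

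The cytosolic enzymes were lower in neonatal cardiomyocytes than in stem cells. Of the 17, 12 were lower, 1 was higher and 4 did not pass the test (adjusted p under 0.05 in limma's moderated test over all genes), where 38.8% of all genes tested were called lower and 35.4% higher. Their median log2 change was -1.46, against -0.09 over all genes. The 12 that fell were the 6 cytosolic members of the multi-synthetase complex (Eprs, Rars, Lars, Iars, Qars and Mars1) together with Vars, Farsb, Tars, Aars, Sars and Nars, with changes from -2.87 to -1.15. Each of them was at least 2-fold lower, a size that 26.8% of all genes reached.

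The largest decrease by the probes used was that of Eprs, the bifunctional enzyme that charges both glutamate and proline in the cytosol. Eprs read 10.63, 10.74 and 10.60 on the mES arrays, 8.61, 7.32 and 7.42 on the CMp arrays and 8.01, 7.91 and 7.64 on the CMa arrays. All cardiomyocyte values lay below all mES values, and CMp replicate 1 lay above the other CMp arrays. The log2 change was -2.87 ± 0.30 (SE) in CMp, 7.34-fold lower with an adjusted p of 5.38e-06, and -2.81 ± 0.30 in CMa, 6.99-fold lower with an adjusted p of 5.36e-06. Without CMp replicate 1 the change in CMp was -3.32, and with the mean of its kept probes it was -1.88. Farsb was at -2.33 or lower in CMp in every alternative, so the rank of Eprs depends on the probe.

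Vars, the valyl enzyme, read 10.08, 10.41 and 10.46 in mES, 7.31, 8.06 and 8.01 in CMp and 7.70, 7.85 and 8.55 in CMa. Its change was -2.52 ± 0.26 in CMp (adjusted p 6.24e-06) and -2.29 ± 0.26 in CMa (adjusted p 1.16e-05), and the cardiomyocyte groups overlapped each other but not mES. Farsb encodes the beta subunit of the cytosolic phenylalanyl enzyme, which works as a tetramer with the alpha subunit Farsa. Farsb read 12.79, 13.04 and 12.81 in mES, 10.56, 10.43 and 10.47 in CMp and 10.83, 10.83 and 10.85 in CMa, with no overlap between any of the groups. It was 5.25-fold lower in CMp (-2.39 ± 0.14, adjusted p 7.02e-08) and 4.12-fold lower in CMa (-2.04 ± 0.14, adjusted p 1.83e-07). The partner subunit Farsa read 6.89, 6.89 and 6.62 in mES, 6.23, 6.96 and 7.02 in CMp and 5.73, 4.69 and 6.09 in CMa. Its CMp and mES values overlapped (-0.06 ± 0.33, adjusted p 0.876), whereas CMa lay below both (-1.30 ± 0.33 against mES, adjusted p 0.00413). Farsa was detected on 2 of the 3 CMa arrays, and its change against mES ran from -0.34 in the authors' normalized values to -2.07 with arrays scaled to a common median.

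The complex as a group was lower in both kinds of cardiomyocyte. Its 7 enzymes, Kars included, were all called lower in both comparisons with mES, beside 38.8% and 40.2% of all genes, with a median log2 change of -1.87 in CMp and -1.41 in CMa. The arginyl enzyme Rars read 11.17, 11.27 and 11.10 in mES, 9.18, 9.18 and 9.26 in CMp and 9.08, 8.999 and 9.14 in CMa, with SDs of 0.08, 0.04 and 0.07. It was 3.92-fold lower in CMp and 4.31-fold lower in CMa. The leucyl enzyme Lars, which also serves as a leucine sensor for mTORC1, read 12.62, 12.77 and 13.004 in mES, 10.50, 11.07 and 11.08 in CMp and 11.25, 11.38 and 11.54 in CMa. Its change was -1.91 ± 0.20 in CMp (adjusted p 5.46e-06) and -1.41 ± 0.20 in CMa (adjusted p 5.52e-05). The isoleucyl enzyme Iars read 11.48, 11.57 and 11.61 in mES, 9.03, 9.98 and 10.04 in CMp and 9.23, 9.31 and 9.52 in CMa, which is a 3.67-fold and a 4.60-fold decrease. Qars, the glutaminyl enzyme, fell by 1.50 in CMp and by 1.36 in CMa on the log2 scale, and Mars1, the methionyl enzyme, fell by 1.46 and 0.85. All these members kept mES apart from both cardiomyocyte groups. The 3 scaffold proteins of the complex fell with its enzymes: Eef1e1 (also called AIMP3) changed by -3.07 in CMp and -2.38 in CMa, Aimp2 by -1.56 and -1.43, and Aimp1 by -1.52 and -1.13, each called lower.

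**Figure D1:**
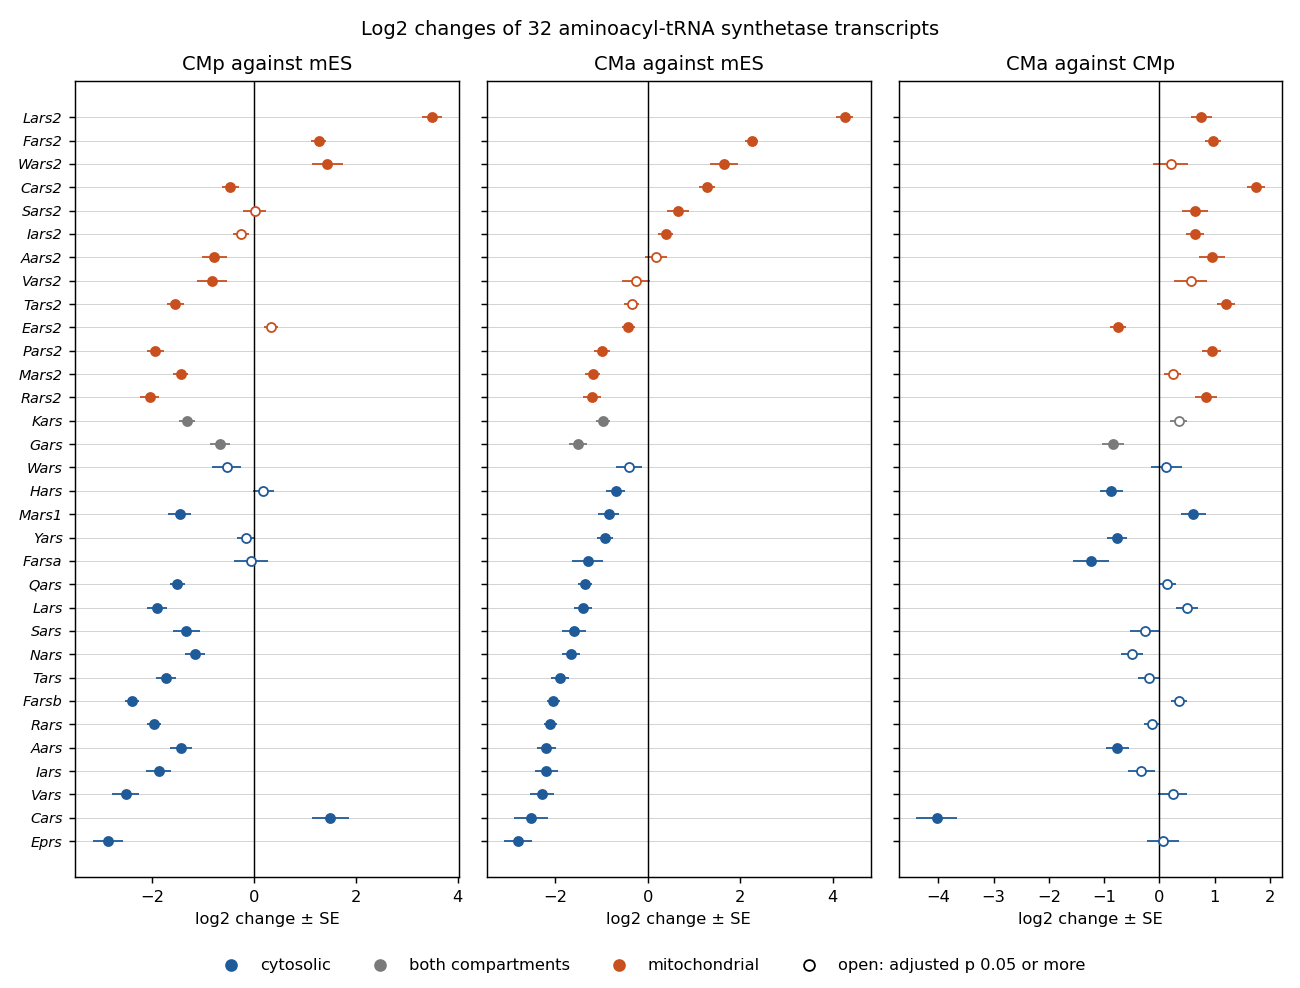
Log2 change with its SE for the 32 tested synthetases in 3 comparisons (horizontal axis, log2 units; 1 row per gene, the same order in each panel; 3 arrays per group; filled points have an adjusted p under 0.05). In CMa against mES all 17 cytosolic points lie below 0 and 7 of the 13 mitochondrial points lie above it, and with arrays scaled to a common median those of Aars2, Iars2 and Sars2 in that panel, and that of Ears2 in CMp against mES, change sign; in the authors' normalized values Hars lies above 0 in that panel.

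Outside the complex the cytosolic members split in neonatal cardiomyocytes. Aars, the alanyl enzyme, read 12.04, 12.44 and 12.02 in mES, 10.37, 10.90 and 10.94 in CMp and 9.86, 9.83 and 10.24 in CMa. Its 3 groups did not overlap, with a change of -1.43 ± 0.21 in CMp and -2.19 ± 0.21 in CMa (adjusted p 8.52e-05 and 2.37e-06). With the mean of its kept probes the changes were -0.56 and -1.38. Sars, the seryl enzyme, read 9.75, 9.73 and 9.42 in mES, 7.63, 8.67 and 8.63 in CMp and 8.20, 7.95 and 7.98 in CMa, and was 2.51-fold lower in CMp and 3.02-fold lower in CMa. The threonyl enzyme Tars fell by 1.72 and 1.91 and the asparaginyl enzyme Nars by 1.15 and 1.65 on the log2 scale in CMp and CMa. The second kept probe of Tars did not pass, at -0.71 in CMp (adjusted p 0.0592) and -0.53 in CMa (adjusted p 0.144). In the authors' normalized values Tars changed by -0.77 in CMp and -0.83 in CMa. In CMp, 4 cytosolic members did not pass the test against mES: Wars at -0.54, Yars at -0.16, Farsa at -0.06 and Hars at 0.18.

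Cars, the cytosolic cysteinyl enzyme, was the exception to the direction of its group in CMp. The probe used read 7.65, 6.90 and 7.57 in mES, 8.12, 9.21 and 9.29 in CMp and 4.37, 4.64 and 5.53 in CMa. By this probe Cars was 2.83-fold higher in CMp than in mES (1.50 ± 0.37, adjusted p 0.00351) and lower in CMa (-2.53 ± 0.37, adjusted p 8.13e-05), with no overlap between the groups. It was detected on 1 of 3 CMa arrays. With the CMa values raised to at least the lowest detected level of their arrays, Cars was at least 3.75-fold lower in this processing. The log2 change in CMa was -0.72 in the authors' normalized values, -1.24 without background correction and -1.66 with an offset of 50, and that in CMp was 0.91 in the authors' values and 0.83 with arrays scaled to a common median. The other kept probe of the gene gave the opposite call in CMp, reading 5.32, 5.71 and 5.60 in mES, 4.22, 4.27 and 4.33 in CMp and 4.26, 4.38 and 4.29 in CMa, a difference of -1.27 in CMp and -1.23 in CMa. All its cardiomyocyte values lay below the lowest detected level of their arrays (4.88 to 5.59), so these differences are measured against background. A further probe of Cars, detected on 1 array and not kept, averaged 5.04 in mES, 4.42 in CMp and 4.28 in CMa. The array annotation gives the probe used a cDNA clone record and the other probes of Cars a RefSeq record. With the mean of both kept probes the change of Cars in CMp was 0.12 (adjusted p 0.63). Its direction there thus depends on the probe, while both kept probes were called lower in CMa.

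In adult cardiomyocytes 16 of the 17 cytosolic enzymes were lower than in mES and 0 were higher, where 40.2% of all genes were called lower and 36.8% higher. Their median log2 change was -1.65, against -0.07 over all genes, and 13 were at least 2-fold lower, a size that 29.4% of all genes reached. The enzyme that did not pass was Wars, for tryptophan, which read 9.32, 9.99 and 9.35 in mES, 8.56, 9.17 and 9.31 in CMp and 9.69, 8.83 and 8.92 in CMa (-0.41 ± 0.29, adjusted p 0.214). Its 3 other kept probes were called lower in both comparisons, with changes from -1.91 to -1.74 in CMp and from -1.71 to -1.26 in CMa, and in CMa the probe used was called lower without CMa replicate 1 (-0.67, adjusted p 0.0452), with array weights (-0.52) and with median scaling (-1.36). With median scaling it was also lower in CMp (-1.27, adjusted p 0.00101). Hars and Yars, the histidyl and tyrosyl enzymes, were undetected on all CMa arrays. Hars read 5.30, 4.83 and 5.19 in mES, 4.89, 5.47 and 5.50 in CMp and 4.29, 4.40 and 4.57 in CMa, and it was detected on 2 of 3 mES arrays. Both were called lower in CMa than in mES (adjusted p 0.00983 for Hars and 0.000632 for Yars), without a usable fold at this depth of signal, and in the authors' normalized values, whose entry for the Hars probe holds other values, Hars was higher in CMa (0.12, adjusted p 0.0241).

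**Figure D2:**
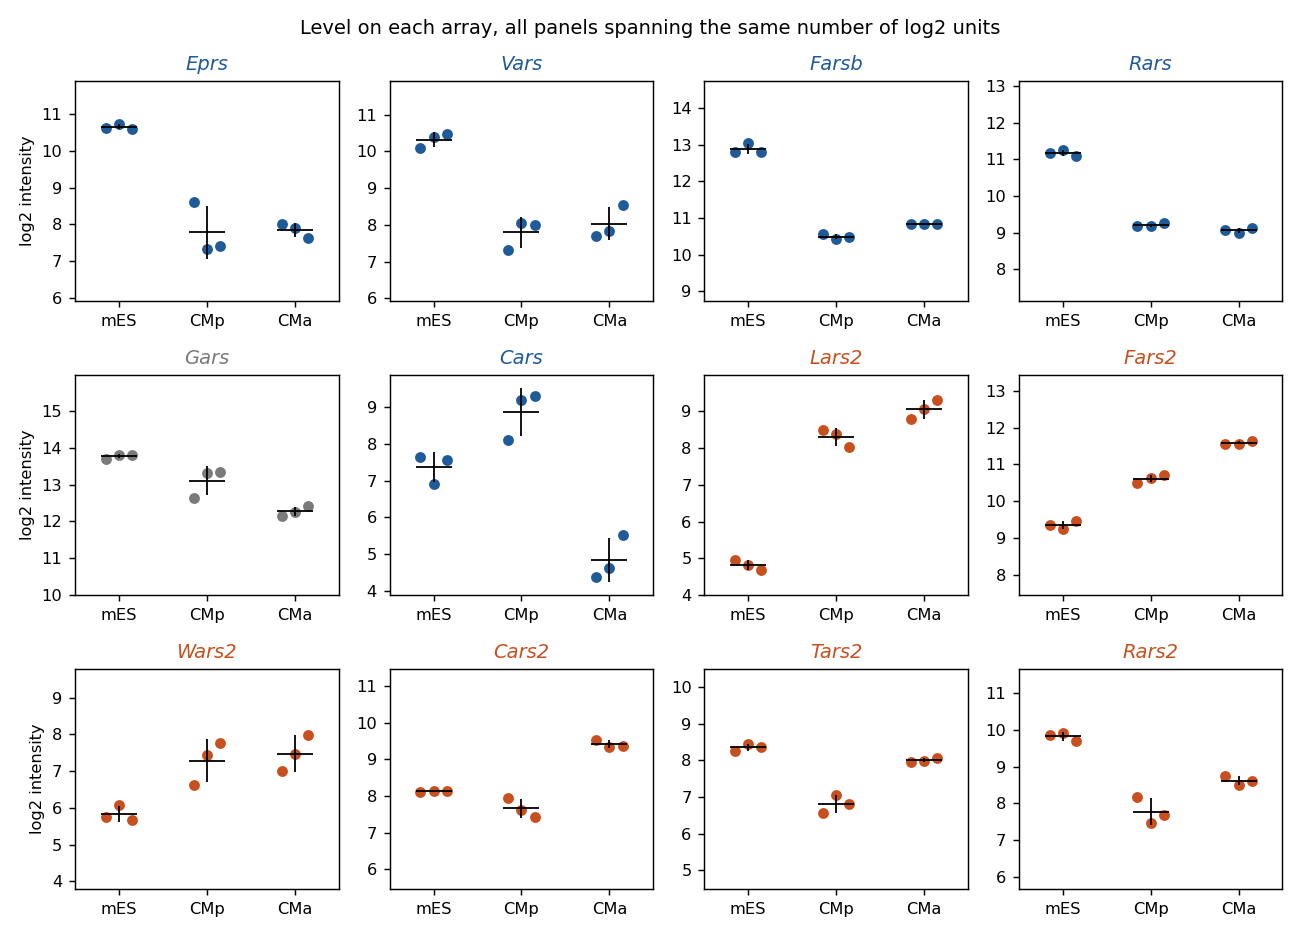
Normalised log2 intensity (vertical axis; each panel spans the same number of log2 units) of 12 synthetases on each of the 9 arrays, in the groups mES, CMp and CMa. Points are arrays, the horizontal bar is the group mean and the vertical line its SD (n = 3). Eprs, Vars, Farsb and Rars separate mES above both cardiomyocyte groups, Lars2, Fars2 and Wars2 separate it below, and Cars by this probe is highest in CMp and lowest in CMa.

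Both enzymes that supply cytosol and mitochondria from 1 gene were lower in cardiomyocytes. Gars read 13.71, 13.81 and 13.82 in mES, 12.65, 13.33 and 13.34 in CMp and 12.15, 12.27 and 12.40 in CMa, so that its 3 groups did not overlap. It was 1.59-fold lower in CMp (-0.67 ± 0.20, adjusted p 0.0101) and 2.84-fold lower in CMa (-1.50 ± 0.20, adjusted p 3.48e-05), and without CMp replicate 1 the change in CMp was -0.45. Kars read 10.52, 10.73 and 10.71 in mES, 9.32, 9.41 and 9.29 in CMp and 9.83, 9.77 and 9.47 in CMa. It was 2.48-fold lower in CMp (-1.31 ± 0.15, adjusted p 1.61e-05) and 1.95-fold lower in CMa (-0.96 ± 0.15, adjusted p 0.000161). Between CMp and CMa, Gars was lower in CMa (-0.83 ± 0.20, adjusted p 0.00471), and Kars, at 0.35 ± 0.15, did not pass (adjusted p 0.0805). It was called higher in 5 of 20 alternatives, at 0.29 to 0.45 and adjusted p 0.00583 to 0.0437: no background correction, an offset of 50, the authors' normalized values, array weights and leaving out CMa replicate 3 (adjusted p 0.0359).

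The mitochondrial enzymes did not move as 1 group. In CMp 7 of the 13 were lower than in mES, 3 were higher and 3 did not pass, where 38.8% of all genes were called lower and 35.4% higher, with a median log2 change of -0.46. In CMa 4 were lower, 6 were higher and 3 did not pass, with a median of 0.17, beside 40.2% and 36.8% of all genes. At least a 2-fold increase was seen for 3 members in CMp and 4 in CMa, a size reached by 26.0% and 28.3% of all genes, and at least a 2-fold decrease for 4 and 2 members, beside 26.8% and 29.4% of all genes. These counts depend on the scaling of the arrays: scaling to a common median moved the median of all genes from -0.09 to -0.59 in CMp and from -0.07 to -0.78 in CMa and gave 3 higher and 9 lower in CMp and 3 higher and 8 lower in CMa. Relative to the median of all genes, the median mitochondrial change was -0.38 in CMp and 0.24 in CMa by quantile normalization and -0.53 and 0.17 by that scaling, and the cytosolic one -1.38 and -1.59 against -1.58 and -1.86.

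Lars2, the mitochondrial leucyl enzyme, rose more than any other member. It read 4.94, 4.81 and 4.67 in mES, 8.50, 8.38 and 8.03 in CMp and 8.79, 9.05 and 9.32 in CMa, so that the 3 groups did not overlap, and it was detected on 1 of 3 mES arrays. The log2 change was 3.50 ± 0.19 in CMp (adjusted p 3.43e-08) and 4.25 ± 0.19 in CMa (adjusted p 5.21e-09). The mES values were then raised to the lowest detected level of their arrays where they lay below it. In this processing Lars2 was at least 9.86-fold higher in CMp and at least 16.6-fold higher in CMa. Smaller changes came from other processing, so these bounds hold for this processing only. Without background correction the log2 change was 1.93 in CMp and 2.56 in CMa, and in the authors' normalized values it was 1.22 and 1.74. The 2 further probes of Lars2 were undetected on all 9 arrays, at 4.23 to 4.76 log2 units, so the increase rests on 1 probe.

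Fars2 encodes the mitochondrial phenylalanyl enzyme, which works as a monomer, unlike the cytosolic tetramer. It read 9.34, 9.25 and 9.45 in mES, 10.51, 10.64 and 10.70 in CMp and 11.56, 11.57 and 11.64 in CMa, 3 groups without overlap. The increase was 2.41-fold in CMp (1.27 ± 0.14, adjusted p 1.05e-05) and 4.73-fold in CMa (2.24 ± 0.14, adjusted p 8.33e-08), and 0.43 and 1.49 log2 units with arrays scaled to a common median. Wars2, the mitochondrial tryptophanyl enzyme, read 5.74, 6.09 and 5.66 in mES, 6.62, 7.45 and 7.76 in CMp and 6.99, 7.47 and 7.97 in CMa. Both cardiomyocyte groups lay above mES and overlapped each other, at 1.44 ± 0.31 in CMp (adjusted p 0.00144) and 1.65 ± 0.31 in CMa (adjusted p 0.000533). In the authors' normalized values the changes of Wars2 were 0.50 and 0.59.

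Cars2, the mitochondrial cysteinyl enzyme, was lowest in CMp and highest in CMa. It read 8.10, 8.14 and 8.13 in mES, 7.95, 7.61 and 7.43 in CMp and 9.54, 9.34 and 9.35 in CMa. It was 2.43-fold higher in CMa than in mES (1.28 ± 0.17, adjusted p 2.97e-05), an increase that missed the threshold with arrays scaled to a common median (0.35, adjusted p 0.0977). Its decrease in CMp (-0.46 ± 0.17, adjusted p 0.0261) was lost without any of the 3 mES arrays and without CMp replicate 2 or 3, at adjusted p 0.056 to 0.113. Sars2, the mitochondrial seryl enzyme, read 5.76, 6.30 and 6.25 in mES, 6.004, 6.35 and 5.99 in CMp and 7.03, 6.93 and 6.30 in CMa. It was called higher in CMa than in mES (0.65 ± 0.23, adjusted p 0.0228), but not without mES replicate 1 or CMa replicate 1 or 2 (adjusted p 0.0796 to 0.102), and was at -0.20 with median scaling. Iars2, the mitochondrial isoleucyl enzyme, read 9.84, 9.61 and 9.82 in mES, 9.64, 9.36 and 9.48 in CMp and 10.02, 10.12 and 10.28 in CMa. Its increase in CMa (0.38 ± 0.16, adjusted p 0.0422) was lost without any mES array, without CMp replicate 2 or 3 and without CMa replicate 2 or 3 (adjusted p 0.0533 to 0.121), and with median scaling Iars2 was lower in CMa (-0.50, adjusted p 0.0153).

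Of the mitochondrial enzymes, 3 were lower in both kinds of cardiomyocyte than in mES. Rars2, for arginine, read 9.87, 9.90 and 9.69 in mES, 8.18, 7.45 and 7.67 in CMp and 8.74, 8.50 and 8.60 in CMa, a 4.15-fold decrease in CMp (-2.05 ± 0.20, adjusted p 3.02e-06) and a 2.31-fold decrease in CMa (-1.21 ± 0.20, adjusted p 0.000172). Pars2, for proline, read 6.79, 6.91 and 7.01 in mES, 4.72, 5.25 and 4.91 in CMp and 6.02, 5.88 and 5.83 in CMa, and was detected on 1 of 3 CMp arrays. Mars2, for methionine, read 8.36, 8.41 and 8.39 in mES, 6.94, 7.14 and 6.76 in CMp and 7.28, 7.09 and 7.21 in CMa. All 3 separated mES from both cardiomyocyte groups, Pars2 by -1.94 ± 0.17 and -0.99 ± 0.17 and Mars2 by -1.44 ± 0.15 and -1.20 ± 0.15. The values of Pars2 lie near background, and without background correction its changes were -0.88 and -0.53 and in the authors' normalized values -0.49 and -0.31.

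A further 4 mitochondrial members moved in 1 of the comparisons with mES. Tars2, for threonine, read 8.26, 8.44 and 8.35 in mES, 6.55, 7.04 and 6.81 in CMp and 7.96, 7.98 and 8.07 in CMa. It was 2.92-fold lower in CMp (-1.55 ± 0.16, adjusted p 6.54e-06), and its CMa values lay just below mES (-0.35 ± 0.16, adjusted p 0.0732), a difference called lower in 6 of 20 alternatives, at -0.21 in the authors' normalized values (adjusted p 0.0113) to -1.36 with median scaling (adjusted p 7.00e-06), leaving out CMp replicate 1 among them (adjusted p 0.0391). Ears2, the mitochondrial glutamyl enzyme, went the other way, reading 9.30, 9.51 and 9.54 in mES, 9.88, 9.71 and 9.76 in CMp and 8.98, 9.07 and 9.04 in CMa. It was lower in CMa than in mES (-0.42 ± 0.14, adjusted p 0.0196), which no longer passed when mES replicate 3 or CMa replicate 1 was left out (adjusted p 0.0509 to 0.0675), and was at -1.40 with median scaling. Its value in CMp was 0.33 (adjusted p 0.0557), called higher in 5 of 20 alternatives (0.27 to 0.33, adjusted p 0.00523 to 0.0253) and turning to -0.46 (adjusted p 0.0201) with median scaling. Aars2, for alanine, read 5.82, 5.95 and 5.88 in mES, 4.54, 5.21 and 5.56 in CMp and 6.14, 5.78 and 6.24 in CMa, and was detected on 2 of 3 CMp arrays. It was lower in CMp (-0.78 ± 0.24, adjusted p 0.0129; -0.49 without CMp replicate 1) and at 0.17 in CMa (adjusted p 0.528), or -0.61 (adjusted p 0.0276) with median scaling. Vars2, for valine, was lower in CMp by the test (-0.82 ± 0.30, adjusted p 0.0266), which no longer passed when mES replicate 1 or 3 or CMp replicate 1 was left out (-0.78 to -0.46, adjusted p 0.0721 to 0.0928), and at -0.26 in CMa (adjusted p 0.445). In CMa Vars2 was called lower with median scaling (-1.26, adjusted p 0.000864) and with array weights (-0.52, adjusted p 0.00758).

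Where both compartments have an enzyme for the same amino acid, the members could be set side by side as 14 pairs, with Eprs and Fars2 each in 2 of them. The mitochondrial change lay above the cytosolic one in 12 of 14 pairs in CMp and in 13 of 14 in CMa. In CMp 3 pairs were called in opposite directions, Lars with Lars2 (-1.91 and 3.50), Farsb with Fars2 (-2.39 and 1.27) and Cars with Cars2 (1.50 and -0.46). The Cars call turned with its other kept probe (-1.27), and the Cars2 call was lost in 6 of 20 alternatives. In CMa there were 6 such pairs, Lars with Lars2 (-1.41 and 4.25), Farsa and Farsb with Fars2 (-1.30 and -2.04 against 2.24), Cars with Cars2 (-2.53 and 1.28), Sars with Sars2 (-1.59 and 0.65) and Iars with Iars2 (-2.20 and 0.38), of which the mitochondrial calls for Cars2, Sars2 and Iars2 were lost or turned with median scaling. Both partners were lower in 6 pairs in CMp and in 4 in CMa. By the probes used, the methionyl pair was the closest in CMp, at -1.46 for Mars1 and -1.44 for Mars2, followed by Rars and Rars2 at -1.97 and -2.05. The other kept probes of Mars1 and Mars2 gave -2.60 and -1.83 in CMp, so this closeness depends on the probe. In CMa Mars2 lay below Mars1 by the probes used (-1.20 and -0.85), but above it by the other kept probes (-1.38 and -2.10). The difference between partners was not itself tested, and CMp and CMa share the mES arrays, so their counts are not independent.

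**Figure D3:**
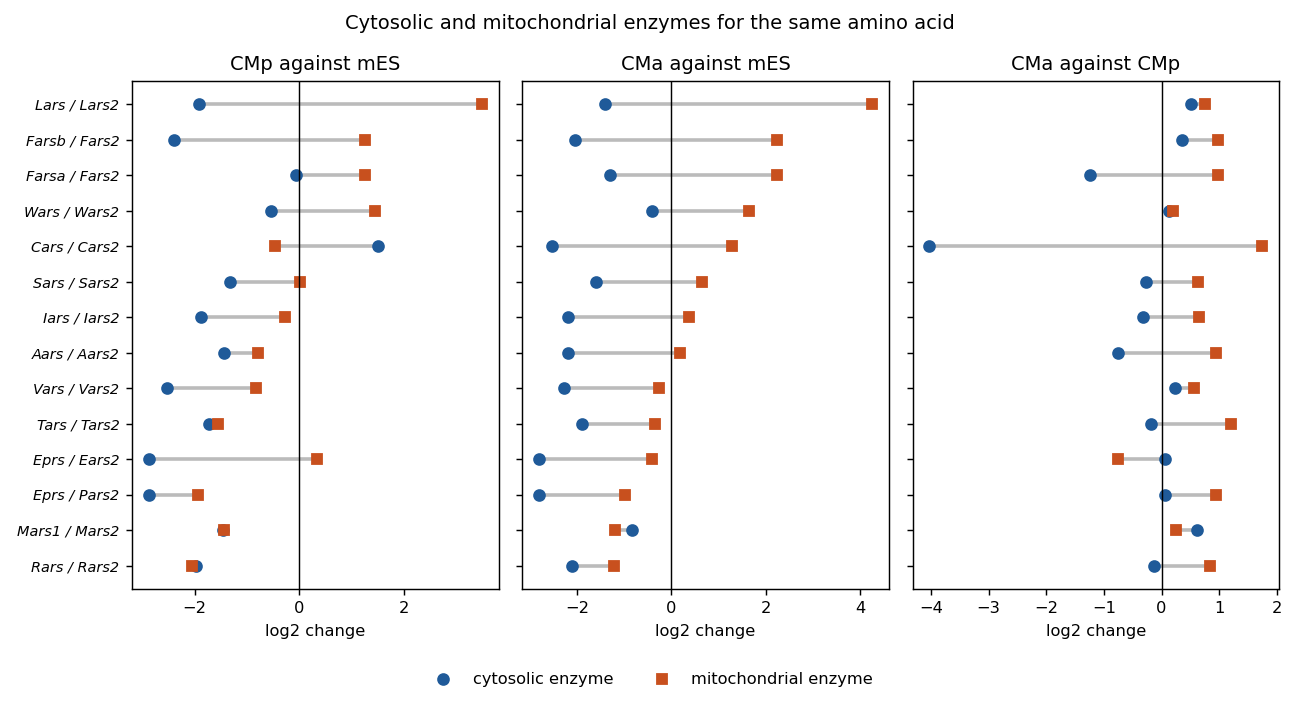
Log2 change (horizontal axis) of the cytosolic enzyme (circle) and the mitochondrial enzyme (square) for the same amino acid in 14 pairs, joined by a grey line, in 3 comparisons whose axes differ in range. In CMa against mES the square lies to the right of the circle in 13 of 14 pairs, with the widest gap for Lars and Lars2 (-1.41 and 4.25); with arrays scaled to a common median the squares of Aars2, Iars2 and Sars2 in that panel and of Ears2 in CMp against mES fall on the other side of 0.

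Between adult and neonatal cardiomyocytes most mitochondrial members were higher in the adult cells. Of the 13 mitochondrial enzymes, 9 were higher in CMa than in CMp, 1 was lower and 3 did not pass, where 26.4% of all genes were called higher and 25.9% lower. Their median log2 change was 0.75, against 0.01 over all genes. The largest increase was that of Cars2, 3.35-fold (1.74 ± 0.17, adjusted p 9.48e-06), and Tars2 was 2.30-fold higher (1.20 ± 0.16, adjusted p 0.000121). These were the members that reached 2-fold, a size reached by 13.9% of all genes. Fars2 rose by 0.97, Aars2 and Pars2 by 0.95 each, Rars2 by 0.84, Lars2 by 0.75, Iars2 by 0.65 and Sars2 by 0.64. Ears2 was the mitochondrial member that fell (-0.75 ± 0.14, adjusted p 0.00119). Wars2, Mars2 and Vars2 did not pass, at 0.20, 0.24 and 0.57.

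By median scaling 5 mitochondrial members were higher in CMa than in CMp and 1 was lower, beside 1 cytosolic member higher and 8 lower, with the calls of Lars2, Rars2, Aars2 and Sars2 lost at values of 0.46, 0.50, 0.54 and 0.15. The call of Sars2, whose groups overlapped, was also lost without mES replicate 3, CMp replicate 1 or 3 and CMa replicate 1 or 2 (adjusted p 0.0513 to 0.125).

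Among the cytosolic enzymes 5 of 17 were lower in CMa than in CMp, 1 was higher and 11 did not pass. Of all genes, 25.9% were called lower and 26.4% higher. The cytosolic median log2 change was -0.18. Cars by the probe used was lower (-4.03 ± 0.37, adjusted p 7.46e-06). In this processing it was lower by at least 10.6-fold against the lowest detected levels of the CMa arrays. Its log2 change was -1.62 in the authors' normalized values, -2.41 without background correction and -2.00 with the mean of both kept probes. The other kept probe of Cars was below detection in both groups. Farsa was lower as well (-1.24 ± 0.33, adjusted p 0.00935), by at least 2.06-fold on the same basis, with a log2 change from -0.33 in the authors' normalized values to -2.09 with array weights. Aars was 1.69-fold lower (-0.76 ± 0.21, adjusted p 0.0105). Hars and Yars were called lower, at adjusted p 0.00457 and 0.00434, with all CMa arrays below detection, and Hars was at 0.08 (adjusted p 0.167) in the authors' normalized values. Mars1, which read 9.92, 10.13 and 10.03 in mES, 8.01, 8.84 and 8.83 in CMp and 9.10, 9.06 and 9.38 in CMa, was the member called higher (0.62 ± 0.23, adjusted p 0.0403). That call was lost without any of the 3 mES or 3 CMa arrays and without CMp replicate 1 (log2 changes of 0.35 to 0.67, adjusted p 0.0539 to 0.12).

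The cytosolic count in this comparison rests on CMp replicate 1 more than any other count here. Without that array 10 cytosolic enzymes were called, 8 lower and 2 higher: Iars (-0.66, adjusted p 0.00411), Nars (-0.65, adjusted p 0.0122) and Sars (-0.61, adjusted p 0.00992) joined those that were lower, and Eprs (0.49, adjusted p 0.0255) and Farsb (0.39, adjusted p 0.0485) were higher. On this array Iars, Sars, Mars1, Aars and Gars were lower, and Eprs and Rars2 higher, than on the other CMp arrays. Farsb was called higher in 9 of 20 alternatives (0.33 to 0.45, adjusted p 0.00504 to 0.0485), leaving out mES replicate 2 (adjusted p 0.0473) among them. Lars, at 0.51 in all arrays (adjusted p 0.0505), was called higher in 10 (0.33 to 0.67, adjusted p 0.00375 to 0.0494), leaving out CMp replicate 3 among them, and Nars lower in 8 (-0.77 to -0.42, adjusted p 0.000227 to 0.0479). The 9 mitochondrial calls made without CMp replicate 1 were 8 higher and 1 lower.

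Ordered by their group means, 8 cytosolic members went from mES down through CMp to CMa, 7 from mES through CMa to CMp, and 2, Cars and Hars, from CMp through mES to CMa. Of the mitochondrial members, 5 were highest in mES and lowest in CMp (Mars2, Pars2, Rars2, Tars2 and Vars2), 4 had means that increased from mES through CMp to CMa (Lars2, Fars2, Wars2 and Sars2), 3 were highest in CMa and lowest in CMp (Aars2, Cars2 and Iars2) and 1, Ears2, was highest in CMp and lowest in CMa. In this ordering CMp and CMa did not differ by the test for 11 cytosolic and 3 mitochondrial members, so the test gives no order between them there. The same holds for mES and CMp in Wars, Yars, Farsa, Hars (0.18), Iars2, Sars2 (0.01) and Ears2. It also holds for mES and CMa in Wars, Tars2, Vars2 and Aars2 (0.17).

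A check within genes was possible for the 21 members with several kept probes. All kept probes of a gene had the same sign in 17 of the 21 genes in CMp and 21 of 21 in CMa, each against mES, and in 17 in CMa against CMp. Opposite calls were found for Cars in CMp against mES and for no other member in any of the 3 comparisons. The second probe of Aars read 5.45, 5.05 and 5.06 in mES and 4.81, 5.78 and 5.92 in CMp (0.32 ± 0.29, adjusted p 0.344), where the probe used was called lower. The dimmest probe of Eprs read 5.74, 6.29 and 5.59 in mES, 6.06, 5.91 and 5.72 in CMp and 4.67, 4.36 and 4.38 in CMa, whereas the remaining probe was called lower like the probe used (-2.78 ± 0.45 in CMp). The array annotation gives the second Aars probe and the dimmest Eprs probe a cDNA clone record, as it does the Cars probe used. The other kept probes of Aars, Eprs and Cars carry a RefSeq record. Which transcripts the probes hit was not analysed here.

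**Figure D4:**
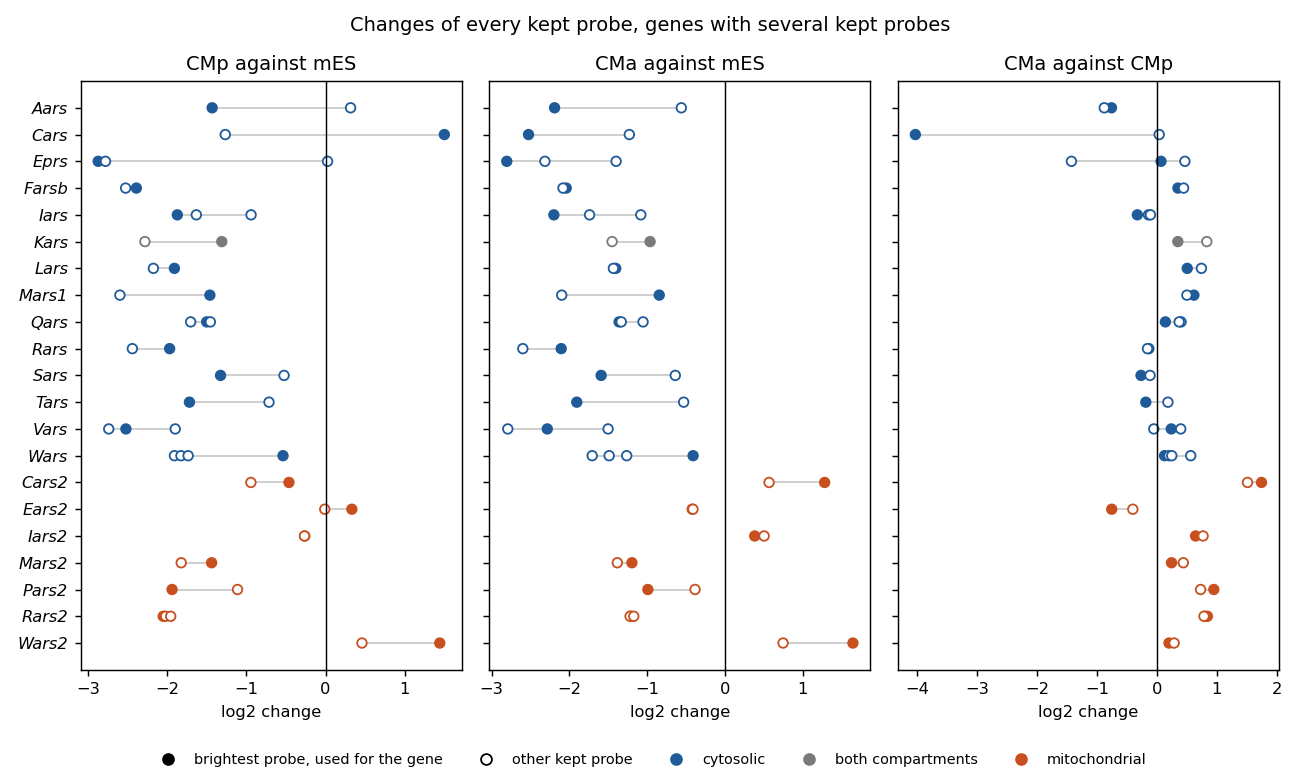
Log2 change (horizontal axis) of every kept probe of the 21 synthetases with several kept probes in 3 comparisons; the filled circle is the brightest probe, used for the gene, open circles are its other probes, and a grey line joins the probes of a gene. All probes of a gene lie on the same side of 0 for 21 of 21 genes in CMa against mES, while in CMp against mES the Cars probes lie at 1.50 and -1.27; with arrays scaled to a common median Iars2 falls below 0 in CMa against mES and Ears2 in CMp against mES.

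Genes that act next to the synthetases were described through lists chosen by function. Charged cytosolic tRNAs are handed to the ribosome by elongation factors, of which 7 were tested: 4 were lower and 2 higher in CMp than in mES (38.8% and 35.4% of all genes), and 6 lower and 1 higher in CMa (40.2% and 36.8%). Eef1a2, the form of adult muscle and neurons, was 105-fold higher in CMp and 369-fold higher in CMa than in mES (6.71 ± 0.17 and 8.53 ± 0.17 log2 units), and rose by a further 1.81 from CMp to CMa. Eef1a1, the widespread form, was at 0.46 in CMp (adjusted p 0.0194), -1.54 in CMa (adjusted p 4.05e-06) and fell by 2.01 between CMp and CMa. The exchange factor subunits Eef1b2, Eef1d and Eef1g were lower in both comparisons with mES (-1.74 and -2.12, -0.78 and -0.57, -0.74 and -0.97).

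Mitochondrial translation factors start, extend and end the chains that the mitochondrial synthetases supply with amino acids. The list of 11 tested genes also held Mief1, which is not a translation factor. Of the 11, 6 were lower and 0 higher in CMp than in mES (38.8% and 35.4% of all genes). In CMa 2 were lower and 4 higher (40.2% and 36.8%). From CMp to CMa 7 were higher and 0 lower (26.4% and 25.9% of all genes), with a median of 1.17. Mtrf1, a release factor family member, rose by 1.98 from CMp to CMa, Gfm2, a ribosome recycling factor, by 1.54, and Mtif3, an initiation factor, by 1.45. Tufm, the factor that brings charged tRNAs to the mitochondrial ribosome, was higher in CMa than in mES (0.83, adjusted p 0.001) and at 0.40 in CMp (adjusted p 0.0526).

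The list of genes related to the synthetases but outside the symbol rule held 11 symbols. Tars3, Farsla and Farslb matched no probe, and 8 genes were tested. In CMp 0 were higher and 3 lower than in mES (35.4% and 38.8% of all genes), and in CMa 4 were higher and 3 lower (36.8% and 40.2%). In CMa against CMp 5 genes were called higher and 0 lower (26.4% and 25.9% of all genes), leaving out Mtfmt, which was below detection in both groups. The subunits of the mitochondrial amidotransferase, which converts glutamyl-tRNA into glutaminyl-tRNA in place of a mitochondrial glutaminyl synthetase, were higher in CMa than in mES: Gatb by 1.42, Qrsl1 by 1.37 and Gatc by 0.85. Ears2, which supplies their substrate, was lower in that comparison. Tarsl2, a threonyl synthetase-like enzyme of the cytosol, was higher in CMa by 1.71 (adjusted p 0.0011). Mtfmt, the formyltransferase that acts on initiator methionyl-tRNA in mitochondria, was undetected on all CMp and CMa arrays, so that it was at least 1.84-fold lower in CMp and at least 1.31-fold lower in CMa than in mES (adjusted p 1.12e-05 and 0.000159).

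Genes that export, trim and modify tRNAs were lower in both kinds of cardiomyocyte. Of 15 tested, 14 were lower and 0 higher in each comparison with mES, beside 38.8% and 40.2% of all genes called lower, with medians of -1.46 in CMp and -1.22 in CMa (-1.21 with undetected genes at their bound), Pop7 being the 1 that did not pass. The tRNA exporter Xpot changed by -1.68 and -2.58, and the methyltransferase Nsun2 by -1.61 in CMp. Pop1, a subunit of RNase P and RNase MRP, was at -2.61 in CMp, where it was detected on 1 of 3 arrays. In CMa both were undetected on all arrays, Nsun2 being at least 4.54-fold and Pop1 at least 3.50-fold lower than in mES.

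ATF4 drives genes of amino acid synthesis and uptake when amino acids run short, and 13 of 17 genes of a list of ATF4 and its targets were tested. In CMp 10 were lower and 3 higher than in mES (38.8% and 35.4% of all genes), and in CMa 11 were lower and 1 higher (40.2% and 36.8%). Atf4 was higher in CMp than in mES (0.79 ± 0.16, adjusted p 0.0011) and lower in CMa (-1.09 ± 0.16, adjusted p 9.66e-05). Asns, asparagine synthetase, changed by -3.20 in CMp and -6.31 in CMa, and Psat1, of serine synthesis and detected on 2 of 3 CMa arrays, by -3.20 and -6.96. Slc7a3, a cationic amino acid transporter, changed by -6.15 in CMp and was at least 96.8-fold lower in CMa, where it was undetected on all arrays. Ddit3, which encodes CHOP, went the other way at 3.15 and 3.21, and Chac1, which degrades glutathione, was 1.10 in CMp and -1.44 in CMa. Between CMp and CMa 9 were lower and 0 higher (25.9% and 26.4% of all genes), among them Atf4 (-1.89), Mthfd2 (-3.36) and Psat1 (-3.76). Among 4 tested of 6 amino acid transporters and sensors upstream of mTORC1, Sesn1 was higher in both comparisons with mES (2.90 and 4.15), Castor1, an arginine sensor, was lower in both (-2.72 and -2.79), and Slc38a2 was higher in CMp (1.20).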

How the data were processed

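Illumina bead arrays measured RNA of mES, CMp and CMa, 3 arrays per group and 9 in all, grouped by the cell type in the labels. The deposited table holds, per the file headers, a mean signal intensity per probe and array on the linear scale, not normalized, and a detection p-value beside each intensity. The deposited matrix holds log2 values that, per the submitters' processing notes, the authors made with lumi, whose version is not stated there. It served as an alternative.

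In R 4.3.3 (with data.table, version 1.17.8), limma 3.58.1 estimated background from the detection p-values (nec), added an offset of 16, and quantile normalized and log2 transformed the intensities. A probe was kept if at least 3 of the 9 arrays gave it a detection p under 0.01, which left 19707 probes. The brightest kept probe stood for a gene, which gave 10800 genes. Gene symbols are those of the array annotation. Group means were fitted to these genes over all arrays at once (lmFit, eBayes), with Benjamini-Hochberg adjustment within each of the 3 comparisons and a call at an adjusted p under 0.05. Where a probe was undetected on all arrays of a group, its fold is a bound, "at least", against the lowest detected level of each array, or is not given where that bound is under 1. The same bound is used for Lars2, Cars and Farsa, whose dim group was detected on only some arrays. A bound holds within this processing only, and some alternatives gave these 3 genes changes below it. The number of arrays limits the precision.

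Alternatives were median scaling, cyclic loess, no background correction, an offset of 50, the authors' matrix, no detection filter, detection on at least 6 arrays, the mean of a gene's kept probes, array weights, only the 2 groups compared, the replicate number as a block, and leaving out each array. The methods were tested on simulated data. The members, lists and motifs were chosen with earlier results of these data known, and compartments and complex membership come from general knowledge of the enzymes. Values per array are given for Gars and Kars, for the 3 called members with the largest changes in each direction, compartment and comparison, for called members that went against their compartment where these numbered 5 or fewer, and for pairs called in opposite directions. Rars, Wars, and the further probes shown were added after their values were seen. Promoter windows come from RefSeq (GRCm38.p6) and were matched by gene.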

Additional observations from a re-analysis of the deposited data

How the results depend on the processing

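Over 20 alternatives the number of cytosolic synthetases called ran from 13 to 14 in CMp against mES, 14 to 17 in CMa against mES and 5 to 11 in CMa against CMp, and that of mitochondrial synthetases from 8 to 12, 8 to 12 and 6 to 10. The 6 cytosolic calls of CMa against CMp became 11 with array weights, which gave CMp replicate 1 the lowest weight of 0.174, and 10 without that array. The 10 mitochondrial calls of that comparison became 6 with arrays scaled to a common median. Leaving out 1 array gave 13 to 13, 16 to 17 and 5 to 10 cytosolic calls and 8 to 10, 8 to 11 and 9 to 10 mitochondrial calls in the same order of comparisons, and 29 to 31 members in the F-test. Median scaling turned the sign of Ears2 in CMp against mES (-0.46) and of Aars2 (-0.61), Iars2 (-0.50) and Sars2 (-0.20) in CMa against mES, and lowered the share of higher calls among all called genes from 47.8% to 34.7% in CMp against mES, from 47.7% to 31.1% in CMa against mES and from 50.5% to 35.1% in CMa against CMp. The authors' matrix turned Hars in CMa against mES (0.12) and against CMp (0.0757); Hars is the 1 tested member probe whose matrix entry differs by more than 0.1 log2 units from its scanner signal, of 3775 such probes on the array. The cause of these changes was not tested. The labels do not say whether the replicate numbers pair samples. Correlations of same-numbered arrays' deviations ran from -0.08 to 0.39, highest between CMp and CMa for replicates 3 (0.39) and 1 (0.35). Such correlations cannot decide whether these arrays share a batch, which was not tested. With the replicate number as a block, 13, 16 and 7 cytosolic synthetases were called in the 3 comparisons, against 13, 16 and 6, and 8169, 8437 and 5857 of all genes, against 8012, 8315 and 5651. A block for the array chip was not run, because the headers used here name none. Under detection on at least 6 arrays, Hars and Yars were not tested. Of 70 called changes of members, 49 moved by over 1.5 times on the log2 scale under at least 1 alternative: the authors' matrix made 30 smaller, no background correction 21 and an offset of 50 made 11 smaller, and median scaling made 17 larger and 13 smaller. Signals near background (Hars, Yars, Cars and Farsa in CMa, Pars2 and Aars2 in CMp, and Lars2 in mES) limit the size of their changes.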
